A study of Mus musculus with 15 samples.

Results

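Folh1, Atp6v1b2, Gtf2h1, Dlg5 and Dcps are 5 of 19297 genes measured on expression arrays of a mouse prostate cancer cell line, and they set apart cells carrying the DQD form of Twist1 from cells carrying the AQA form. They were chosen by their limma adjusted p under 0.05 in DQD against AQA on these same arrays, so their values in that contrast are a description and were given no test. In DQD cells Folh1, Atp6v1b2, Gtf2h1 and Dlg5 read higher than in AQA cells and Dcps read lower. Each gene has 1 probe set with that symbol alone.

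The line, Myc-CaP, comes from the prostate tumour of a Myc-transgenic mouse, and all groups share that background and were transfected, selected and harvested at confluence. The groups are cells with Twist1 F191G, mutated in the Twist box, cells with the DQD form, cells with the AQA form, cells with wild-type Twist1 (WT) and cells with an empty vector (VEC), with 3 arrays each. The labels do not give the promoter driving Twist1, whether each group was a clone or a pool, the residues behind the names DQD and AQA, or whether replicates A, B and C are independent cultures. Every p-value is thus relative to a spread among arrays that may be purely technical. RNA was measured in bulk, so fewer cells with a transcript and less of it per cell cannot be told apart.

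Twist1, of the basic helix-loop-helix family of transcription factors, binds DNA motifs called E-boxes as a dimer, often with an E protein, and its carboxy-terminal Twist box contacts other regulators. Folh1 encodes the membrane enzyme glutamate carboxypeptidase II, which removes glutamate from folates and from a neuropeptide. In human prostate cancer it is known as prostate-specific membrane antigen. Atp6v1b2 encodes a subunit of the vacuolar proton pump that acidifies lysosomes. Gtf2h1 encodes a core subunit of TFIIH, a complex for transcription initiation and nucleotide excision repair. Dlg5 encodes a scaffold protein of cell polarity and adhesion. Dcps encodes the scavenger enzyme that hydrolyses the cap left after an mRNA has been degraded by the exosome.

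Some facts of the whole series touch every value below. Twist1 itself read 6.65, 6.85 and 6.76 in F191G, 6.62, 6.74 and 6.97 in DQD, 6.87, 6.41 and 6.75 in AQA, 6.77, 6.85 and 6.75 in WT, and 6.45, 6.71 and 6.13 in VEC on the deposited log2 scale. The groups with Twist1 overlapped one another, and F191G, DQD and AQA also overlapped VEC, while every WT array lay above every VEC array. WT minus VEC was 0.36 (SE 0.147, limma adjusted p = 0.129). The stretch of mRNA targeted by this probe set is unknown here, and the values cannot serve as a check of the labels. Of the luminal prostate markers, Fkbp5 read 10.02 to 10.36, Krt8 7.35 to 8.89, Hoxb13 7.04 to 8.18 and Epcam 4.82 to 5.15. Krt18 read 5.58 to 6.04, Cdh1 5.40 to 5.75 and Tmprss2 5.42 to 5.77. Pbsn, which encodes probasin, read 2.05 to 2.24, near the lowest value of the table, 1.41. The mean over these 8 markers was 6.17 to 6.21 in F191G, 6.11 to 6.15 in DQD, 6.15 to 6.22 in AQA, 6.27 to 6.32 in WT and 6.18 to 6.33 in VEC. DQD thus lay below F191G, WT and VEC without overlap, and overlapped AQA. The mean over 3 basal epithelial markers was 5.67 to 5.72 in F191G, 5.55 to 5.77 in DQD, 5.55 to 5.77 in AQA, 5.72 to 5.79 in WT and 5.79 to 6.23 in VEC. Every VEC array lay above every other array, but the lowest VEC and the highest WT array nearly tied, both at 5.79. The mean over 5 haematopoietic markers was 4.60 to 4.64 in F191G, 4.53 to 4.62 in DQD, 4.56 to 4.69 in AQA, 4.65 to 4.77 in WT and 4.65 to 4.81 in VEC. Over 5 fibroblast markers it was 6.41 to 6.50 in F191G, 6.29 to 6.45 in DQD, 6.48 to 6.53 in AQA, 6.51 to 6.59 in WT and 6.47 to 6.52 in VEC, so that DQD and AQA did not overlap. The part of these markers in the results was not tested. The deposited values had been adjusted more than a plain normalization would do. Within groups, the difference between array batches A and B averaged 0 to rounding for each of the 23811 probe sets. The deviations of the 15 arrays from their group means spanned 8 dimensions, where 10 are possible, and batch accounts for only 1 of the 2 missing ones. The series' design text names a normalization by Twist1 expression, and whether that is the other is not given. The fit with group and batch thus counts 9 residual degrees of freedom where these values hold 8, and where the count of 8 ends a call it is given beside it. Counting 8 changes no group difference, so it cannot show whether the adjustment also moved the group means. The SEs of group differences, with their intervals and p-values, may thus be too small even with 8. WT replicate A stands apart from the other arrays, with a lowest correlation of 0.975, against a lowest of 0.992 among the others.

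The sequence just before the annotated start of transcription is shown for Folh1 and for Dcps, because they had the largest upward difference and the one downward difference among the members and because Twist1 binds E-boxes. Capitals mark each match to the general E-box CANNTG, which reads the same on both strands. Both windows hold the 250 bases before the start, from RefSeq on build GRCm38.p6, on the minus strand, at chr7:86775865-86776114 for Folh1 and chr9:35175988-35176237 for Dcps.
Folh1: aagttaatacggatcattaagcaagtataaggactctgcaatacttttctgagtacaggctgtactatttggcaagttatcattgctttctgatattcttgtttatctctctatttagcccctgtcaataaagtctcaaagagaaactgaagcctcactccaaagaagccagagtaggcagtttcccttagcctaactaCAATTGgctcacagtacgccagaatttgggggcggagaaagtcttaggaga
Dcps: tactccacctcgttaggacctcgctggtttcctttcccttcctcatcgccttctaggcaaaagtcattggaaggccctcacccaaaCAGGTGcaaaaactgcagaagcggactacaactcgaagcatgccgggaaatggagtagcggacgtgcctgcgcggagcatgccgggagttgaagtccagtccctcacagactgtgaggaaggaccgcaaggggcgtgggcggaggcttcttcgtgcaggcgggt
The Folh1 window holds 1 match, CAATTG, which begins 51 bases before the start. The Dcps window holds 1 match, CAGGTG, beginning 164 bases before it. Of the others, Gtf2h1 has 1 match, CACGTG, 26 bases before its start, and Dlg5 has 2, CAAGTG and CAGTTG, 214 and 53 bases before its own. An E-box of this general form occurs in 66.2% of the 32851 RefSeq windows of that length. Its subset CAATTG occurs in 3.48%, CACGTG in 6.02% and CAGGTG, searched on both strands, in 17.2%. CATCTG, searched on both strands, and CATATG, also subsets of CANNTG, occur in 14.4% and 3.46% and in 0 of the 4 members' windows. A match describes these letters and is not evidence of binding. Atp6v1b2 is named only.

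Folh1 differed most among the members in DQD against AQA. It read 10.15, 9.88 and 10.02 on the 3 DQD arrays, against 8.37, 8.97 and 8.88 on the AQA arrays, so the groups did not overlap. The difference was 1.27 on the log2 scale (SE 0.162), or 2.41-fold. In the other groups Folh1 read 9.75, 9.53 and 9.63 in F191G, 9.61, 9.59 and 9.74 in WT, and 8.48, 7.92 and 8.22 in VEC. The order of means was DQD, WT, F191G, AQA and VEC. WT and F191G overlapped, as did AQA and VEC, while DQD lay above WT and F191G lay above AQA on every array. AQA thus lay between VEC and the other 3 forms in mean, and 1 AQA array, at 8.37, lay within the VEC range. Against the same VEC arrays the differences were 1.43 for F191G (SE 0.162), 1.81 for DQD (SE 0.162), 0.54 for AQA (SE 0.158) and 1.44 for WT (SE 0.158). These 4 share the VEC arrays, and those of DQD and AQA also share the arrays that chose the gene.

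Of these, WT against VEC compares no AQA or DQD array, though those arrays share in the estimate of the spread behind its p. Folh1 rose there 2.72-fold (log2 difference 1.44, 95% interval 1.10 to 1.78, limma adjusted p = 0.000929). Every WT array lay above every VEC array. It was still called with each of the 15 arrays left out in turn, with differences of 1.29 to 1.59 and adjusted p from 0.000633 to 0.0107, and at 1.46 without WT replicate A. With only the VEC, WT and F191G arrays in the fit it was also called (adjusted p = 0.0138), and it was not with only the arrays compared (adjusted p = 0.0716) or with batch A alone (1.40, adjusted p = 0.306). F191G and WT differed by -0.01 (95% interval -0.36 to 0.34, limma adjusted p = 0.978). That F191G read above VEC was known when the gene was chosen and is left as a value. The WT test uses the same VEC arrays and so is not fully apart from the choice.

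**Figure D1:**
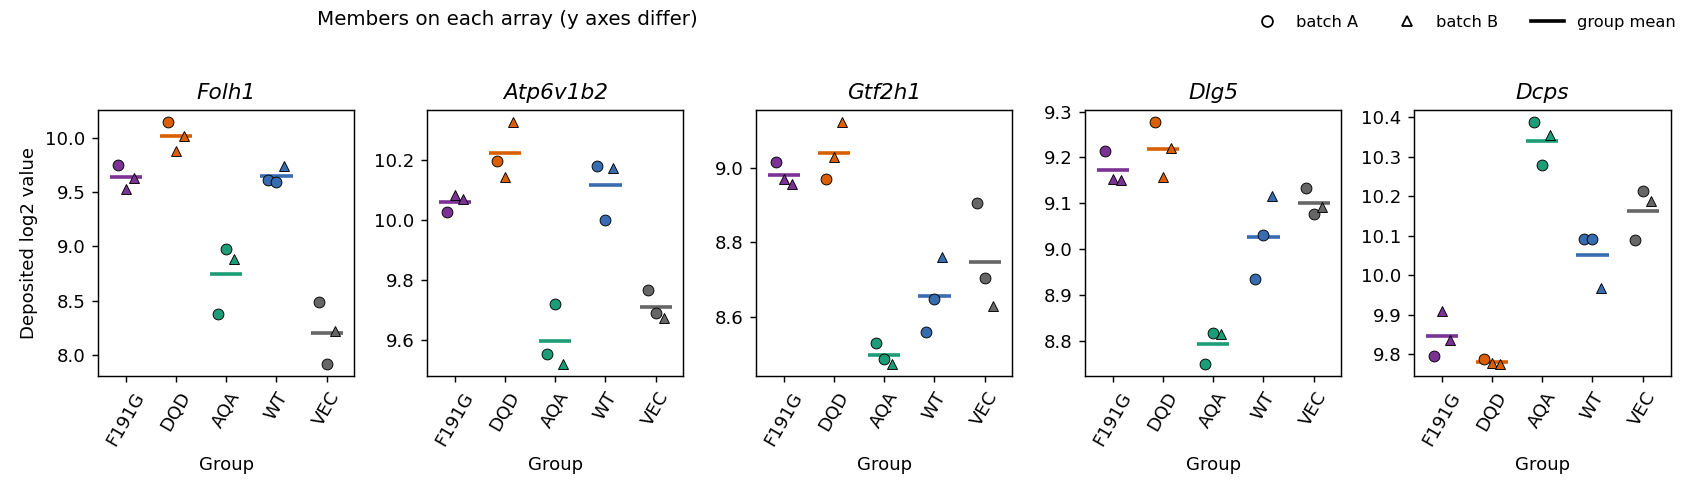
Deposited log2 value (y axis, a separate range per panel) of each member on each array, by group (x axis); circles are batch A, triangles batch B and bars the group means of 3 arrays. Folh1 reads 9.88 to 10.15 in DQD, 8.37 to 8.97 in AQA and 7.92 to 8.48 in VEC, while Dcps is lowest in DQD (9.78 to 9.79) and highest in AQA (10.28 to 10.39).

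Atp6v1b2, the pump subunit, had high and low groups with no group between them. It read 10.20, 10.14 and 10.33 in DQD, against 9.55, 9.72 and 9.52 in AQA, a difference of 0.63 (SE 0.077), or 1.54-fold. F191G arrays read 10.03, 10.08 and 10.07, WT arrays 10.18, 10.00 and 10.17, and VEC arrays 9.77, 9.69 and 9.67. DQD overlapped WT and WT overlapped F191G, and every array of these 3 groups lay above every AQA and VEC array. AQA and VEC overlapped, with an AQA minus VEC difference of -0.11 (SE 0.075). In the test that leaves the choosing arrays out of the comparison, Atp6v1b2 rose in WT against VEC by 0.41 on the log2 scale (95% interval 0.24 to 0.57, limma adjusted p = 0.00876). The call was kept with 14 of the 15 arrays left out in turn and lost without VEC replicate C, at 0.38 (adjusted p = 0.0623). It was also lost in a fit of the VEC, WT and F191G arrays alone (adjusted p = 0.0512), with Twist1's own value as a covariate (adjusted p = 0.0761), with only the arrays compared (adjusted p = 0.132) and within batch A (adjusted p = 0.306) or B (adjusted p = 0.105). F191G minus VEC was 0.35 (SE 0.077, limma adjusted p = 0.119) and was not called, and F191G minus WT was -0.06 (95% interval -0.22 to 0.11, limma adjusted p = 0.690).

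Gtf2h1 and Dlg5 shared another order of groups, DQD, F191G, VEC, WT and AQA. Gtf2h1, the TFIIH subunit, read 8.97, 9.03 and 9.12 in DQD, against 8.53, 8.49 and 8.47 in AQA, a difference of 0.54 (SE 0.080). It read 9.02, 8.97 and 8.96 in F191G, 8.56, 8.65 and 8.76 in WT, and 8.91, 8.70 and 8.63 in VEC. AQA was thus lower than every other group on every array. DQD overlapped F191G and VEC overlapped WT, and F191G lay above VEC and WT without overlap. Gtf2h1 rose in F191G against WT by 0.32 (95% interval 0.15 to 0.50, limma adjusted p = 0.0377). That call was lost with 8 residual degrees of freedom (adjusted p = 0.0638) and when any of 9 arrays was left out, namely AQA replicates A and C and each DQD array (adjusted p = 0.0510 to 0.0540), each F191G array and WT replicate A. Without F191G replicate A the difference was 0.30 (adjusted p = 0.243), and without WT replicate A 0.28 (adjusted p = 0.101). WT minus VEC was -0.09 (95% interval -0.26 to 0.08, limma adjusted p = 0.529), with -0.20 in batch A and 0.13 in batch B, and F191G minus VEC was 0.24 (SE 0.080, limma adjusted p = 0.290).

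Dlg5, the polarity scaffold, read 9.28, 9.16 and 9.22 in DQD, against 8.75, 8.82 and 8.82 in AQA, a difference of 0.43 (SE 0.062), the smallest of the 5. In F191G it read 9.22, 9.15 and 9.15, in WT 8.94, 9.03 and 9.12, and in VEC 9.13, 9.08 and 9.09. AQA again lay below every array of the other groups, and AQA minus VEC was -0.31 (SE 0.061). DQD and F191G overlapped, as did VEC and WT. In the comparisons without AQA and DQD arrays Dlg5 differed by -0.07 in WT against VEC, 0.07 in F191G against VEC and 0.15 in F191G against WT (limma adjusted p = 0.506, 0.700 and 0.148). The first of these had a 95% interval of -0.20 to 0.06.

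Dcps, the scavenger decapping gene, was the member that ran the other way. It read 9.79, 9.78 and 9.78 in DQD, against 10.39, 10.28 and 10.36 in AQA, a difference of -0.56 (SE 0.063), so that AQA was 1.47-fold higher than DQD. It read 9.79, 9.91 and 9.84 in F191G, 10.09, 10.09 and 9.97 in WT, and 10.09, 10.21 and 10.19 in VEC. The order of means was AQA, VEC, WT, F191G and DQD, and of neighbouring groups only VEC and WT overlapped. The lowest F191G array and the highest DQD array both round to 9.79. Dcps differed by -0.32 in F191G against VEC (95% interval -0.45 to -0.18, limma adjusted p = 0.0947) and by -0.20 in F191G against WT (95% interval -0.34 to -0.07, limma adjusted p = 0.0614). Neither passed the test. WT minus VEC was -0.11 (SE 0.061, limma adjusted p = 0.263).

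**Figure D2:**
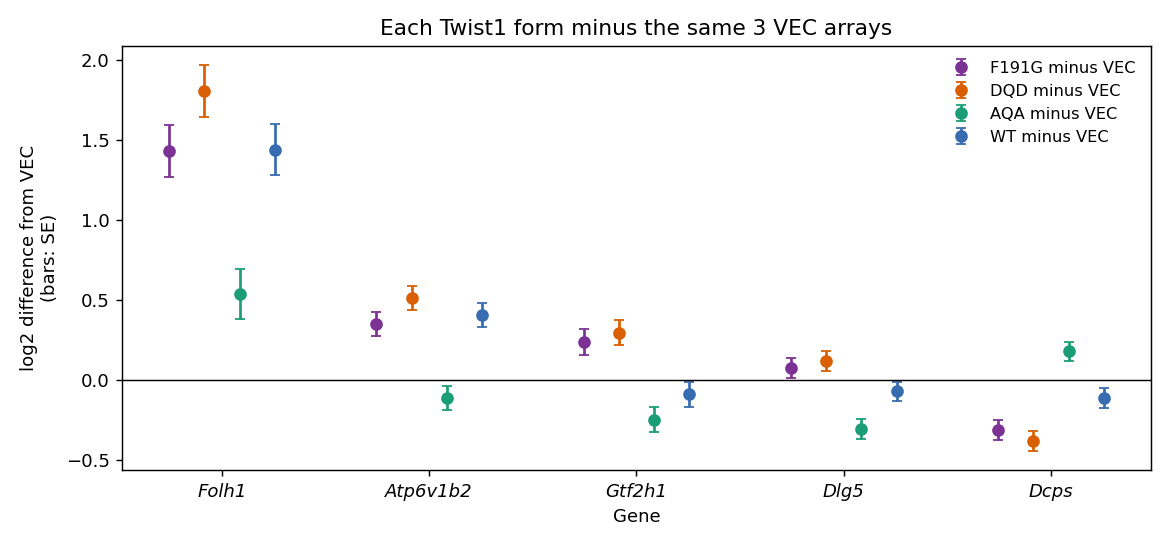
Log2 difference of each Twist1 form from the same 3 VEC arrays (y axis) for each member (x axis). Bars are 1 SE from the limma fit. Only the F191G and WT points compare no AQA or DQD array, though those arrays share in the spread behind every bar. That Folh1 read higher in F191G than in VEC was known when the gene was chosen. The AQA point is the lowest of the 4 for Folh1, Atp6v1b2, Gtf2h1 and Dlg5 (0.54, -0.11, -0.25 and -0.31) and the highest for Dcps (0.18).

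The DQD and AQA differences from VEC follow as a description, since they hold the arrays that chose the members. For Folh1 and Atp6v1b2 the DQD difference from VEC was the larger in size, at 1.81 and 0.51, against 0.54 and -0.11 for AQA. For Dlg5 the AQA difference was larger, at 0.12 for DQD and -0.31 for AQA. Gtf2h1 differed from VEC to similar sizes in opposite directions, 0.30 (SE 0.080) in DQD and -0.25 (SE 0.078) in AQA. Dcps also went opposite ways, with -0.38 (SE 0.063) in DQD and 0.18 (SE 0.061) in AQA. F191G minus DQD was -0.38 for Folh1 and lay between -0.16 and 0.07 for the others. F191G minus AQA was 0.90, 0.46, 0.48, 0.38 and -0.49 for Folh1, Atp6v1b2, Gtf2h1, Dlg5 and Dcps.

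Among all genes, 5 were called in DQD against AQA, 0.0259% of those tested, and these are the members. The adjusted p that chose them ran from 0.0131 for Dcps to 0.0477 for Dlg5 and Gtf2h1. Just outside the threshold stood Tgfbrap1 (0.50, SE 0.077), Nnmt (-0.52, SE 0.080) and Pjvk (-1.49, SE 0.234), each at 0.0514, so the edge of the set falls between nearly equal values. How many genes pass depended on single arrays: the count was 0 without AQA replicate A, AQA replicate C, DQD replicate A or DQD replicate C, 1 without F191G replicate C or VEC replicate C, 2 without DQD replicate B, 3 without VEC replicate B, WT replicate B, F191G replicate A or F191G replicate B, 29 without WT replicate C and 162 without WT replicate A. The DQD and AQA arrays of all 5 members did not overlap, which held for 27.3% of all genes. Nothing is read from these counts, since the contrast chose the members.

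In the comparisons that leave AQA and DQD aside, 2 of the 5 members rose in WT against VEC, Folh1 and Atp6v1b2, where 12.8% of all genes were called. Of the 4 members other than Folh1, 0 were called in F191G against VEC by limma, where 0.0985% of all genes were called, and 3 of them had an unadjusted p under 0.05, which 11.7% of all genes had. In F191G against WT 1 of 5 was called, Gtf2h1, where 7.13% of genes were called. That last count was 0 with 8 residual degrees of freedom. The p-values behind these member counts use the same estimate of each gene's spread as the choice of the members. The counts are thus not fully apart from the choice, and the shares over all genes are no test of them.

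The DQD and AQA arrays of no member overlapped, so the sign of their difference was all but fixed by the choice and is no test. The DQD minus AQA difference kept its sign for each member in every batch and with each array left out. Within batch A, which holds 1 DQD and 2 AQA arrays, it was 1.47 for Folh1, 0.56 for Atp6v1b2, 0.46 for Gtf2h1, 0.50 for Dlg5 and -0.54 for Dcps. Within batch B, with 2 DQD arrays and 1 AQA array, it was 1.07, 0.72, 0.60, 0.37 and -0.58 in the same order. Batch differences averaged over groups are 0 in the deposited values. Folh1 was the most variable member, with a residual SD of 0.22, larger than that of 92.8% of genes. Dlg5 and Dcps had residual SDs of 0.06, with 7.18% and 7.88% of genes having a smaller one, against a median of 0.11 over all genes. The p that chose the members rests on this spread, so a small SD favoured a gene's entry.

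**Figure D3:**
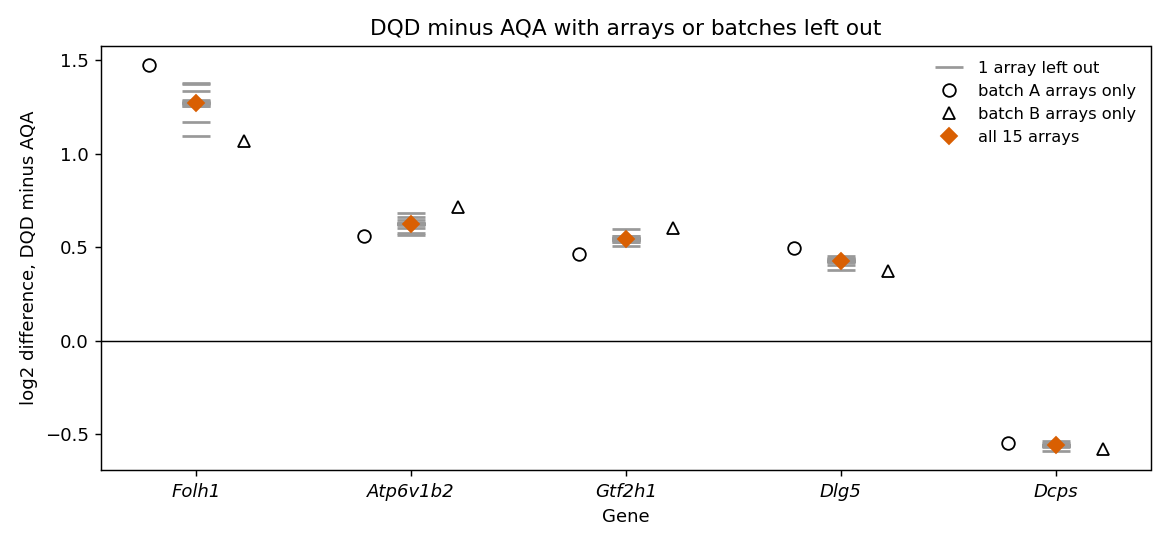
DQD minus AQA log2 difference (y axis) for each member (x axis) from all 15 arrays (diamonds), with each array left out in turn (grey bars), and from batch A (circles) or batch B (triangles) alone. Folh1 spans 1.07 to 1.47 and Dcps stays between -0.59 and -0.54, and no value crosses 0. That was all but fixed, since the DQD and AQA arrays of each member did not overlap.

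Across the 15 arrays Dcps ran against the other members, with Pearson correlations of -0.80 with Folh1, -0.88 with Atp6v1b2, -0.92 with Gtf2h1 and -0.89 with Dlg5. Gtf2h1 and Dlg5 correlated at 0.89 and Folh1 and Atp6v1b2 at 0.88, while Folh1 and Dlg5 correlated at 0.50. These points share groups, which were part of how the genes were chosen. After each group's mean was taken off, the correlations of Dcps with the other 4 were -0.73, -0.45, -0.63 and -0.66 in the same order, that of Gtf2h1 with Dlg5 was 0.46 and that of Folh1 with Atp6v1b2 was 0.38. The deviations of 15 arrays share batches and the missing dimensions and are a description. With Twist1 the members correlated between -0.25 for Dcps and 0.46 for Folh1 over the arrays, and the signs of both turned among the deviations, to 0.43 for Dcps and -0.60 for Folh1. The sign also turned for Atp6v1b2, from 0.41 to -0.12, and for Dlg5, from 0.003 to -0.29. Gtf2h1 kept its sign, at 0.24 and 0.31.

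The genes whose values most resembled each member over the 15 arrays were found by Pearson correlation. For Folh1 they were Dctn4 (0.925), Aggf1 (0.916), Clip1 (0.913), Scaf8 (0.896) and Gpatch2 (0.894). Dctn4 was also the most alike to Atp6v1b2 (0.920), followed by Trim26 (0.908) and Phf20l1 (0.902). Dctn4, which encodes a subunit of the dynactin motor complex, read 9.22 in F191G, 9.23 in DQD, 9.07 in AQA, 9.22 in WT and 9.05 in VEC, a far smaller span than Folh1's. Luzp1 (0.940), Senp5 (0.929) and Mtmr10 (0.926) were most like Gtf2h1, and Nipal1 (0.937), Vps8 (0.932) and Mrpl48 (0.927) most like Dlg5. Dnajc12, which encodes a co-chaperone, was most like Dcps (0.957), followed by Ttc12 (0.920) and Gli1 (0.898), the Hedgehog pathway transcription factor. Dnajc12 read 6.52 in F191G, 6.49 in DQD, 6.79 in AQA, 6.65 in WT and 6.68 in VEC.

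The partners of each member in its complex or pathway were counted without the member. The lists hold 23 other genes of the vacuolar proton pump, 20 of TFIIH and nucleotide excision repair, 29 of mRNA decapping and exosome decay, 24 of Discs large and cell polarity, and 17 of the Folh1 family and folate handling. In DQD against AQA the members are all the genes called, so that 0 of these partners could be, and their values are a description. An unadjusted p under 0.05 was found for 2, 2, 5, 4 and 3 of them, 14.2% of the 113, beside 14.6% of all genes. The median differences were -0.01, 0.02, 0.09, -0.03 and 0.03, beside -0.02 over all genes. The partner differences ran from -0.28 to 0.29 in the pump list and from -0.27 to 0.30 in the polarity list. In the mRNA decay list they ran from -0.20 to 0.58. The highest was that of Exosc2, an exosome subunit named after its value was seen. Exosc2 read 8.96 ± 0.18 in DQD and 8.38 ± 0.14 in AQA (SD, n = 3 each), a difference of 0.58 (SE 0.212, limma adjusted p = 0.244).

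**Figure D4:**
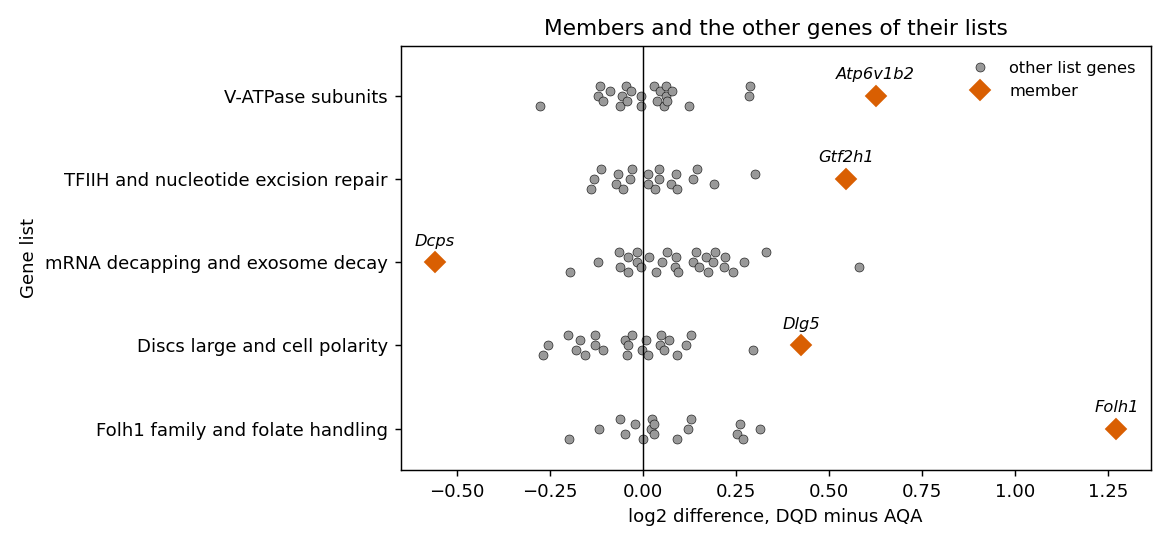
DQD minus AQA log2 difference (x axis) of the other genes of each list (grey points, spread vertically for legibility) and of the member (diamond) by gene list (y axis). The members sit at 0.63, 0.54, -0.56, 0.43 and 1.27 from the top, and the medians of the grey points lie between -0.03 and 0.09.

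Partners of each member were also among the genes called in WT against VEC, 12.8% of all. Of 23 pump genes 3 rose and 1 fell, with a median of 0.04, beside -0.01 over all genes. Atp6ap2, an accessory subunit also known as the prorenin receptor, rose by 0.98 (SE 0.206, limma adjusted p = 0.0133), Tcirg1, a membrane-sector subunit, by 0.59 (SE 0.131, limma adjusted p = 0.0158), and Atp6v0d1, also of the membrane sector, by 0.58 (SE 0.156, limma adjusted p = 0.0321). Of 20 TFIIH and repair genes 2 rose and 4 fell, with a median of -0.11. The damage-recognition gene Xpa rose by 0.52 (SE 0.085, limma adjusted p = 0.00612), while the TFIIH subunit gene Gtf2h5 fell by 0.41 (SE 0.070, limma adjusted p = 0.00689) and Rad23b fell by 0.27 (SE 0.060, limma adjusted p = 0.0150).

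In the same comparison 2 of 29 decapping and decay genes rose and 9 fell, with a median of -0.18. Among them Lsm3, Lsm4 and Lsm6, subunits of the ring that binds decaying mRNA tails and spliceosomal RNA, fell by 0.67, 0.39 and 0.52 (limma adjusted p = 0.00992, 0.0127 and 0.0137), and the exonuclease gene Xrn1 rose by 0.39 (limma adjusted p = 0.0140). Of 24 polarity genes 3 rose and 0 fell, with a median of 0.06: Pard6g by 0.60, Patj by 0.37 and the Dlg5 relative Dlg3 by 0.21 (limma adjusted p = 0.0262, 0.0418 and 0.0446). With 8 residual degrees of freedom the calls of Patj and Dlg3 were lost (adjusted p = 0.0636 and 0.0748). Of 17 genes of the Folh1 family and folate handling 2 rose and 5 fell, with a median of -0.18. Ggh, whose product removes glutamates from folates inside lysosomes, rose by 0.61 (limma adjusted p = 0.00682), while Naaladl1, a relative of Folh1, fell by 0.37 (limma adjusted p = 0.0137). The folate carrier gene Slc19a1 fell by 0.50 (limma adjusted p = 0.0213) and the thymidylate synthase gene Tyms changed by -0.996 (limma adjusted p = 0.0198). Over the 5 lists 31 genes were called, 12 higher and 19 lower, and 22 with 8 residual degrees of freedom, 7 higher and 15 lower. An unadjusted p under 0.05 was found for 53 of the 113, or 46.9%, beside 27.6% of all genes. The lists were chosen with earlier results of these data known, and no set test was run. Leaving out VEC replicate A, B or C gave 15, 19 or 1 list genes called, while leaving out WT replicate A gave 10. Among all genes the same settings gave 1314, 1693, 128 and 844, where all arrays gave 2466.

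In F191G against VEC limma called 0 genes of the 5 lists, and 5 of the 113, or 4.42%, had an unadjusted p under 0.05, beside 11.7% of all genes. In F191G against WT, where 7.13% of genes were called, 16 were called, 9 higher and 7 lower. An unadjusted p under 0.05 was found there for 45 of the 113, or 39.8%, beside 27.7% of all genes. The TFIIH kinase partner gene Ccnh rose there by 0.36 (SE 0.076, limma adjusted p = 0.0312) and the pump gene Atp6v0a2 by 0.26 (SE 0.067, limma adjusted p = 0.0414). The number called was 0 with 8 residual degrees of freedom and without WT replicate A, F191G replicate A or F191G replicate C. Without F191G replicate B or DQD replicate A it was 2. It was 4 without AQA replicate A, 5 without AQA replicate C or DQD replicate C, 6 without VEC replicate C, 8 without DQD replicate B, 10 without VEC replicate B and 32 without WT replicate B.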

How the data were processed

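Biotin-labelled total RNA of 15 samples was measured on single-colour arrays. The deposited log2 values of 23811 probe sets were made by the authors with RMA (background correction, quantile normalization, summarization) and examined with limma, per the submitters' processing notes; versions are not stated there. Of the probe sets 20852 carry 1 symbol in the platform annotation, 1440 several and 1519 are not listed there. The probe set with the highest mean was kept per symbol, leaving 19297 genes with no filter on dim ones. The array number limits the precision.

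A linear model of group and batch over the 15 arrays used limma 3.58.1 under R 4.3.3 (9 residual and 3.93 prior degrees of freedom), and p-values were adjusted by Benjamini and Hochberg over all genes. The threshold was 0.05. Levels are on the deposited log2 scale and differences are log2 differences. The 5 members and the gene lists were chosen with earlier results of these data known. From each list up to 4 genes with the smallest p among those called in any of 4 comparisons are named, and per member the 3 most correlated genes (5 for Folh1), passing over predicted and clone names. Comparisons that hold AQA or DQD arrays carry no test for the members. Alternatives changed the batch term, pairing, Twist1 covariate, arrays, scaling, dim genes, probe sets, variance model and weights, or left out arrays. The model was run on simulated data with independent noise on each array. That noise lacks the missing dimensions, so the run cannot check the count of degrees of freedom. Promoters come from RefSeq (GRCm38.p6), with 4 of 5 members matched. Figures were drawn with matplotlib 3.10.9.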

Additional observations from a re-analysis of the deposited data

How the results depend on the processing

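Of 420 member values in the comparisons without AQA or DQD (Folh1 in F191G against VEC left out), recomputed under alternatives, 390 kept their side of the threshold, 24 lost and 6 gained the call. The sign changed in 11 of them, 0 of which were called in either fit: Folh1 in F191G against WT, near 0, in 8, Atp6v1b2 there in 1, and Gtf2h1 and Dlg5 in WT against VEC in batch B (0.13 and 0.02). Each of 145 DQD minus AQA values kept its sign, which was all but fixed since the members' DQD and AQA arrays did not overlap. That difference for Dlg5 was 0.37 after another quantile normalization, 0.48 with median centring, 0.50 in batch A and 0.37 in batch B, for Dcps -0.62 and -0.50 under the first and second of these, and for Gtf2h1 0.46 in batch A and 0.60 in batch B. Counts of calls moved far more. Genes called in WT against VEC, F191G against VEC, F191G against WT and DQD against AQA were 2466, 19, 1375 and 5. They were 3188, 86, 2908 and 156 without the batch term, which counts 10 residual degrees of freedom where the values hold 8, and 17, 1, 467 and 4 with Twist1 as a covariate. With only the arrays compared they were 10, 13, 0 and 21, after another quantile normalization 2644, 16, 1263 and 2, with median centring 2271, 8, 1633 and 28, and without the dimmest genes 2914, 18, 2018 and 16. All probe sets gave 2714, 15, 1241 and 3, trend and robust variances 2329, 21, 1193 and 7, and array weights 2311, 24, 1050 and 1670. Batch A alone gave 0 in each and batch B 293, 51, 14 and 29. After seeing the data, the second missing dimension was added as a term (1595, 4, 117 and 3) and a fit of the VEC, WT and F191G arrays alone was added (125, 8 and 0 in the first 3). With each array left out in turn the ranges were 128 to 3261, 0 to 42, 0 to 2952 and 0 to 162.

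Partner genes called in WT against VEC, F191G against WT and DQD against AQA were 31, 16 and 0. They were 40, 27 and 3 without batch, 0, 3 and 0 with Twist1 as a covariate, 0 in each with only the arrays compared or batch A, 2, 0 and 0 in batch B, 29, 10 and 0 after quantile normalization, 26, 11 and 10 with array weights, 22, 0 and 0 with the second dimension, and 1 and 0 in the first 2 in the fit of 3 groups. With arrays left out they ranged from 1 to 37, 0 to 32 and 0 to 1. In F191G against VEC the count was 0 in each of these settings. Members called were 2 in WT against VEC, 0 in F191G against VEC with Folh1 left out, and 1 in F191G against WT. They were 2, 2 and 2 without batch, 1, 0 and 0 with the covariate, in batch B and in the fit of 3 groups, 0, 0 and 0 with only the arrays compared or batch A, 2, 0 and 2 after quantile normalization and without the dimmest genes, and 2, 0 and 0 with the second dimension. With arrays left out they ranged from 1 to 2, 0 to 0 and 0 to 2.

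No pairing by replicate letter was seen: 6 of 30 same-letter pairs had deviations correlated above 0.1 and 0 of 15 arrays correlated best with its own letter. The dimension missing beside batch has positive weights for A and negative ones for B in all 5 groups, so this check cannot settle whether letters paired the arrays before it was lost. With the letter as a replicate block beside batch, 1523, 0, 251 and 0 genes, 22, 2 and 0 partner genes and 2, 0 and 0 members were called, and with the block in place of batch 1961, 7, 927 and 3 genes, 25, 10 and 0 partner genes and 2, 0 and 1 members. Other probe sets of a member could not be tried, since each has 1. The causes of these changes were not tested. The number of arrays limits precision.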

Other observations

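The second dimension that the deposited deviations lack, beside the labelled batch, gives each array a weight. The weights were 0.27, -0.18 and -0.09 for F191G replicates A, B and C, 0.17, -0.20 and 0.03 for DQD, 0.32, -0.49 and 0.17 for AQA, 0.36, -0.48 and 0.12 for WT, and 0.06, -0.21 and 0.15 for VEC. The deviations from the group means, summed over the 15 arrays with these weights, come to 0 to rounding over the 23811 probe sets, Twist1 included. Replicate B has the lowest weight in each of the 5 groups. What the weights stand for is unknown here.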
